A study of Mus musculus with 12 samples.

Results

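The joint effect of a mutation and a culture medium was read from 6 of the 12 arrays of a microarray study of mouse embryonic stem cells. The 3 arrays of Nat1-null cells grown in 2i+LIF were set against the 3 arrays of wild-type cells grown in LIF, chosen by sample title, and all genes were compared. Both the genotype and the medium differ between these groups. The remaining 6 arrays hold Nat1-null cells in LIF (3 arrays) and wild-type cells in 2i+LIF (3 arrays), each 1 change away from wild-type LIF cells. They give the single changes whose sum was set beside the joint change. All cells carry the label of a mouse embryonic stem cell line and were grown on gelatin-coated plates, with LIF in every group. The labels name neither the allele nor the number of mutant clones, and they do not say whether replicates were separate cultures. The p-values therefore reflect variation among these arrays, which may be technical.

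Mouse embryonic stem cells keep their undifferentiated state through LIF, a cytokine that activates STAT3. The 2i cocktail adds an inhibitor of MEK, which blocks ERK signalling, and an inhibitor of GSK3, which stabilises beta-catenin and so relieves repression by TCF factors at Wnt target genes. Cells in 2i approach the naive state of the preimplantation epiblast. Nat1 here means Eif4g2, which once carried that name and is also called DAP5, a relative of the translation initiation factor eIF4G that lacks the eIF4E-binding region and serves translation of selected mRNAs. The mouse gene that carries the symbol Nat1 today, an N-acetyltransferase, is a different gene.

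Levels are log2 signals with each array's own 75th percentile set to 0. Differences are on the log2 scale, are taken against wild-type LIF unless another group is named, and rest on n = 3 per group. Between 49.8% and 66.3% of 59305 gene-directed spots were well above background on each array, and replicate arrays correlated at 0.988 or more. All 9 embryonic stem cell markers were well above background on every array. The Nat1-null 2i+LIF arrays lie on slide 3 with the Nat1-null LIF arrays, the wild-type 2i+LIF arrays on slide 2 and the wild-type LIF arrays on slide 1, so the joint change and the slide cannot be told apart, and neither can the departure from the sum. The 3 Nat1-null 2i+LIF arrays and replicate 3 of Nat1-null LIF also share a row of their slide, with negative-control means of -16.4 to -10.2 against -9.89 to -6.45 elsewhere. Replicates differed more in Nat1-null 2i+LIF (SD of the difference between 2 arrays across genes 0.492 to 0.549) than in wild-type LIF (0.254 to 0.266). The spread was as wide in Nat1-null LIF (0.483 to 0.581) and narrower in wild-type 2i+LIF (0.299 to 0.313). The fit used 1 estimate of the spread of each gene for all 4 groups.

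Eif4g2 RNA, the check of the labels, was low in the mutant in both media. Its levels were 1.22, 1.26 and 1.41 in Nat1-null 2i+LIF, 1.33, 1.26 and 1.23 in Nat1-null LIF, 4.23, 4.10 and 4.29 in wild-type 2i+LIF and 4.55, 4.49 and 4.44 in wild-type LIF. No Nat1-null array overlapped a wild-type one. Against wild-type LIF the difference in Nat1-null 2i+LIF cells was -3.20 (SE 0.071, adjusted p = 8e-10), a 9.16-fold lower level, beside -3.22 for genotype alone and -0.29 for medium alone. The remaining signal was well above background on all arrays, and the files do not say where the probe lies relative to the deleted part.

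Joint changes were widespread. Of 24457 genes tested with limma, 8852 were higher and 8098 lower in Nat1-null 2i+LIF than in wild-type LIF at adjusted p below 0.05, which is 36.2% and 33.1% of all genes. By at least 2-fold, 2345 were higher (9.59%) and 4138 lower (16.9%), but among genes whose probes were well above background on all 12 arrays (called bright here) the balance turned, with 2066 higher and 1646 lower. The 2 groups of 3 arrays did not overlap for 18747 genes (76.7%), and the median difference over all genes was 0.033. The departure, the joint change minus the sum of the single changes, was called above 0 for 5614 genes (23.0%) and below 0 for 6535 (26.7%). A departure of 0 means that the log2 changes add up. Probes well above background on Nat1-null 2i+LIF arrays started at levels of -5.37 to -4.06. For 1508 of the 5614 genes above 0, and for 1464 of the 2833 at least 2-fold above, the level that adding both changes would give lies below -5.37. A level below that limit is not read as a signal, so the size of those departures is not a result, and neither is the sign where the Nat1-null 2i+LIF level is itself near the limit. Without scaling between arrays the median joint change shifted by -0.33 and 28.7%, instead of 52.2%, of the calls were higher, while 78.5% of called departures lay above 0 instead of 46.2%.

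Among the 2345 genes at least 2-fold higher, the median joint change was 1.47, beside medians of 1.05 for medium alone, 1.26 for genotype alone and 2.31 for the sum. For the 4138 genes at least 2-fold lower the medians were -1.98 for the joint change, -1.27 for medium, -1.90 for genotype and -3.14 for the sum, and over the 1646 bright ones they were -1.60, -1.01, -1.48 and -2.45. These genes were picked by the joint change, and the wild-type LIF arrays enter the joint change, both single changes and the departure, so these medians are a description. Nat1-null 2i+LIF lay past both wild-type 2i+LIF and Nat1-null LIF, each by its own call, in 631 of the genes at least 2-fold higher and 778 of those at least 2-fold lower, which is 2.58% and 3.18% of all genes tested. That order depended on the processing: the counts were 615 and 436 with probes bright on all 12 arrays, 594 and 465 with normexp background correction, and 344 and 996 without scaling. Nat1-null 2i+LIF was told apart from neither single change for 458 of the 2345 higher genes (19.5%) and 1364 of the 4138 lower genes (33.0%), but among bright genes for 355 of 2066 (17.2%) and 247 of 1646 (15%).

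**Figure D1:**
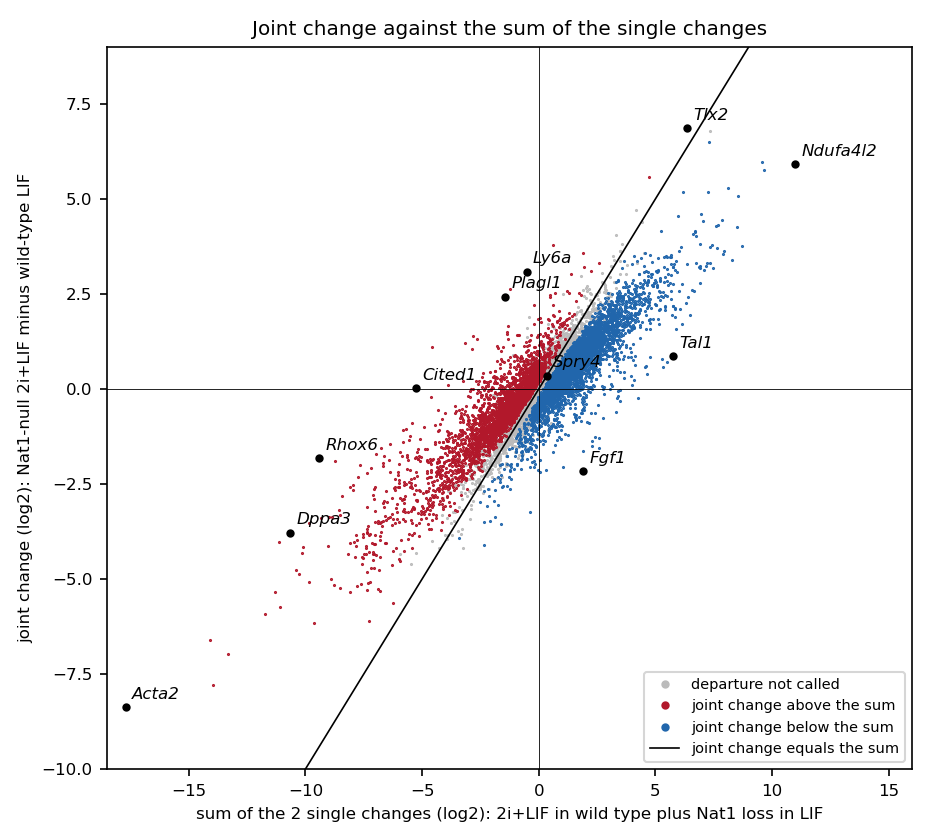
Each point is 1 of the 18972 genes bright on all 12 arrays, with the sum of the single changes (log2) on the horizontal axis and the joint change (log2) on the vertical axis. The line marks equality, red genes were called above the sum, blue genes below it, and Acta2 (sum -17.69, joint change -8.37) and Ndufa4l2 (sum 11, joint change 5.92) lie far from the line on either side. The sum of Acta2 would take it below the lowest signal read as well above background.

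Naive pluripotency genes were mostly higher in Nat1-null 2i+LIF cells than in wild-type LIF cells. Of 22 genes tested, 15 rose and 5 fell, and the median joint change was 1.37, beside medians of 1.22 for medium alone and 1.43 for genotype alone. Tfcp2l1, a transcription factor that carries the STAT3 signal to the naive network, had levels of 6.12, 5.80 and 6.03 in Nat1-null 2i+LIF, 4.36, 4.46 and 4.43 in Nat1-null LIF, 5.28, 5.28 and 5.24 in wild-type 2i+LIF and 1.34, 1.44 and 1.32 in wild-type LIF. All 3 Nat1-null 2i+LIF arrays were the highest. The joint change was 4.62 (SE 0.08, adjusted p = 3.8e-10), or 24.5-fold, beside a sum of 6.95, a departure of -2.33 (SE 0.11, adjusted p = 2.9e-07). It exceeded medium alone by 0.72 and genotype alone by 1.57 (both called).

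Nanog, the homeodomain factor of the naive epiblast, had levels of 3.77, 3.97 and 3.88 in Nat1-null 2i+LIF, 3.75, 3.70 and 3.68 in Nat1-null LIF, 4.31, 4.33 and 4.29 in wild-type 2i+LIF and 2.29, 2.31 and 2.35 in wild-type LIF. Nat1-null 2i+LIF lay above wild-type LIF and below wild-type 2i+LIF without overlap, and differed from Nat1-null LIF by 0.16 (adjusted p = 0.054). Its joint change was 1.56 (SE 0.058, adjusted p = 1.4e-08), while medium gave 2.00, genotype 1.40 and the sum would be 3.39, so the departure was -1.83. Esrrb, an orphan nuclear receptor, had a joint change of 2.14 against a sum of 4.66, and Prdm14, which represses FGF signalling and DNA methyltransferases, had 2.10 against 4.36. For these 2 genes medium alone (2.30 and 1.98) and genotype alone (2.36 and 2.38) each came close to the joint change. Klf4, Klf5 and Tbx3, transcription factors downstream of LIF, had joint changes of 2.80, 1.96 and 3.38, and Klf2, another Krüppel-like factor, had 1.26. Each had a departure below 0, from -2.49 for Tbx3 to -1.21 for Klf2. Zfp42 (Rex1), a zinc finger marker of naive cells, had a joint change of -0.0026 (adjusted p = 0.99).

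Dppa3, which protects imprinted methylation in the early embryo, went the other way. Its levels were -0.10, 0.27 and -0.18 in Nat1-null 2i+LIF, -2.83, -2.89 and -3.01 in Nat1-null LIF, -0.22, -0.18 and -0.21 in wild-type 2i+LIF and 3.76, 3.78 and 3.79 in wild-type LIF. The wild-type LIF arrays were the highest and the Nat1-null LIF arrays the lowest. The joint change of -3.78 (SE 0.10, adjusted p = 2.5e-09) was 13.7-fold down, close to medium alone (-3.98) and short of genotype alone (-6.69). Adding both changes would give a level of -6.89, below the lowest signal read, so the departure has no readable size.

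**Figure D2:**
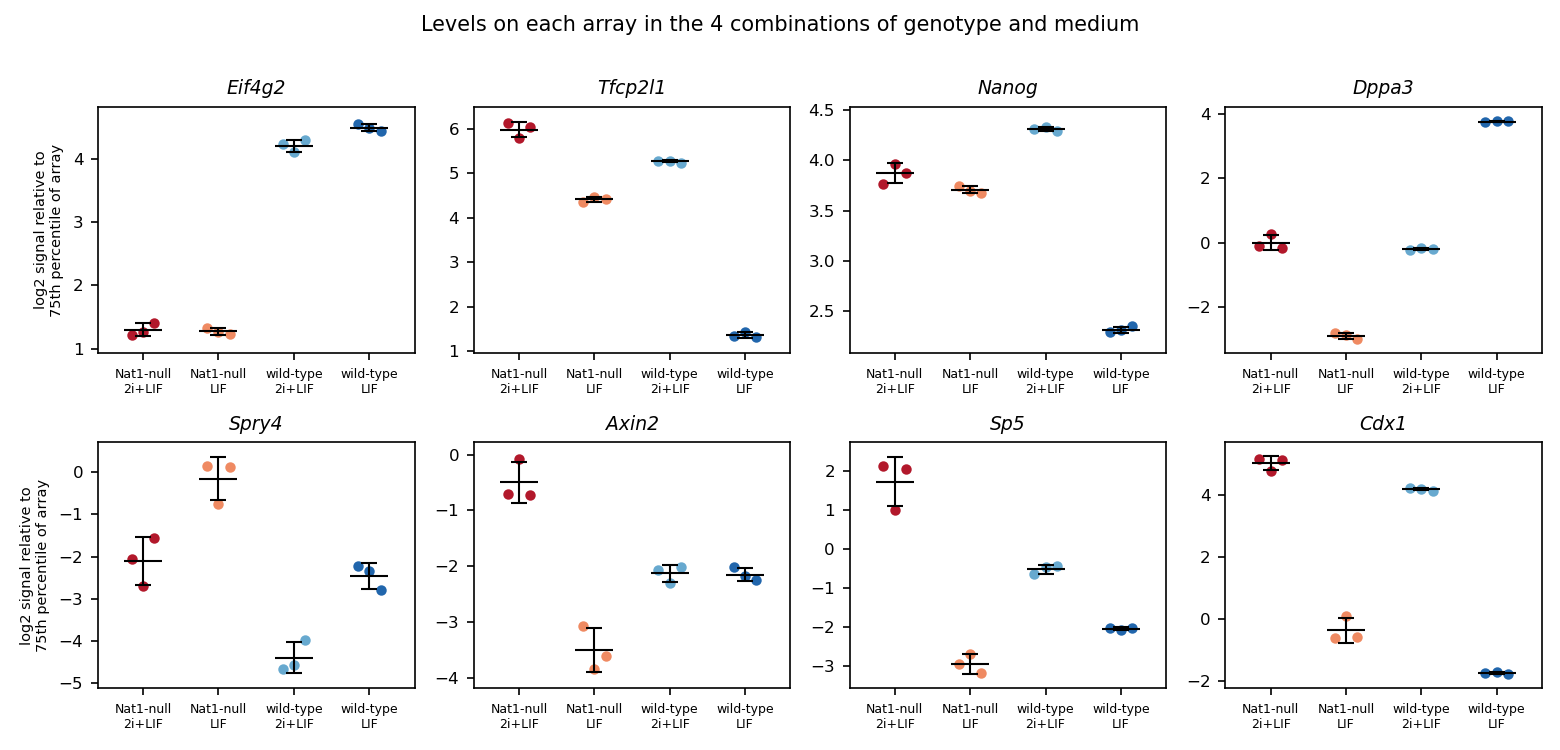
Log2 level, with each array's 75th percentile at 0 (vertical axis), for 8 genes in the 4 groups, with a point per array and a bar for the mean ± SD (n = 3). Tfcp2l1 and Nanog were higher than wild-type LIF in the other 3 groups, Dppa3 was lower in all 3, and Sp5 and Axin2 were highest in Nat1-null 2i+LIF.

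The general pluripotency list had 10 of 20 genes higher and 3 lower, with a median joint change of 0.32 that was -0.012 without scaling. Pou5f1 and Sox2, the core factors, had joint changes of 1.19 and 1.75, or 2.29-fold and 3.37-fold. Pou5f1 levels averaged 3.74 ± 0.075 in Nat1-null 2i+LIF, against 2.55 ± 0.12 in wild-type LIF (SD, n = 3 each). Alpl, alkaline phosphatase, rose by 2.41, and Tdh, the threonine dehydrogenase on which mouse embryonic stem cells draw for one-carbon metabolism, by 2.38. Lin28a, an RNA-binding protein that blocks let-7 maturation, had a joint change of -2.28, and its levels in Nat1-null and wild-type 2i+LIF cells (2.45 and 2.39) did not differ by the test (adjusted p = 0.7).

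LIF and STAT3 targets followed the naive genes, which share Klf4, Klf5, Tfcp2l1 and Gbx2 with this list. Of 20 tested, 14 rose and 4 fell, with a median joint change of 1.07, beside medians of 0.82 for medium alone and 1.13 for genotype alone. Socs3, the feedback inhibitor of the LIF receptor, had levels of 5.67, 5.82 and 5.73 in Nat1-null 2i+LIF cells, against 2.82, 3.33 and 3.09 in wild-type LIF cells, a joint change of 2.66 (SE 0.12, adjusted p = 4.6e-08). It exceeded medium alone by 0.98 and differed from genotype alone by -0.13 (adjusted p = 0.45). Osmr, a receptor of oncostatin M, was not well above background outside wild-type LIF and was at least 2.09-fold lower.

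Formative and primed epiblast genes were lower. Of 18 tested, 15 fell and 1 rose, with a median joint change of -1.57, beside medians of -2.27 for medium alone and -1.41 for genotype alone. Pou3f1 (Oct6), a POU factor of the postimplantation epiblast, had a joint change of -3.89 (SE 0.10, adjusted p = 1.4e-09), between medium (-4.35) and genotype (-3.18). The SOX factors Sox3 and Sox11 and the zinc finger factor Sall2 were lower by more than with medium alone, with joint changes of -4.63, -5.23 and -4.17 beside -2.30, -3.43 and -2.35 for medium. Genotype alone lowered each of them by more than medium alone did, and the single changes summed to -6.31, -8.19 and -6.11. The sum of Sox11 would take it below the lowest signal read. Sox11 was well above background on 1 Nat1-null 2i+LIF array.

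Several epiblast genes were less reduced than with 2i in wild-type cells. Fgf5, the formative epiblast ligand, had levels of -3.17, -1.98 and -2.36 in Nat1-null 2i+LIF, -3.84, -4.23 and -3.57 in Nat1-null LIF, -6.12, -6.49 and -6.90 in wild-type 2i+LIF and -1.64, -1.64 and -1.53 in wild-type LIF. It was not well above background on any wild-type 2i+LIF array and was well above background on all Nat1-null 2i+LIF arrays. Its joint change was -0.90 (SE 0.30, adjusted p = 0.022), while it was at least 15.1-fold lower with medium alone and changed by -2.28 with genotype alone. It was -0.57 and not called without Nat1-null 2i+LIF replicate 1, and likewise -0.86 without wild-type LIF replicate 3. Otx2, the transcription factor that opens epiblast enhancers, had a joint change of -0.38 against -1.73 for medium and 0.034 for genotype. The de novo methyltransferase Dnmt3b (-1.58) and its cofactor Dnmt3l (-2.90) were lower than in wild-type LIF, but higher than in wild-type 2i+LIF by 0.99 and 1.68. Dnmt3a, the other de novo enzyme, had a joint change of -1.56 with -1.49 from genotype and -0.11 (adjusted p = 0.6) from medium.

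Among ERK pathway targets, 7 of 23 genes rose and 10 fell, not far from the 36.2% higher and 33.1% lower among all genes, with a median joint change of 0.022 that turned negative under 7 of 25 alternative settings, beside -0.82 for medium and 0.29 for genotype. Spry4, a feedback inhibitor of receptor tyrosine kinase signalling, had levels of -2.05, -2.70 and -1.56 in Nat1-null 2i+LIF, 0.15, -0.74 and 0.14 in Nat1-null LIF, -4.67, -4.57 and -3.99 in wild-type 2i+LIF and -2.22, -2.35 and -2.80 in wild-type LIF. Its 2 single changes were opposite, -1.96 with medium and 2.31 with genotype, and the joint change was 0.36 (SE 0.34, adjusted p = 0.37), beside a sum of 0.36. Nat1-null 2i+LIF and wild-type LIF arrays overlapped, and the departure was not called (adjusted p = 1). Dusp6, the phosphatase of ERK, had a joint change of -1.35 (SE 0.16, adjusted p = 3.2e-05), less than medium alone (-2.59) and opposite to genotype alone (0.49).

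Egr1, an immediate early transcription factor, had levels of -3.15, -3.1 and -2.99 in Nat1-null 2i+LIF, -2.19, -2.0 and -2.09 in Nat1-null LIF, -4.59, -4.80 and -4.77 in wild-type 2i+LIF and 1.11, 1.10 and 0.97 in wild-type LIF, and was well above background on 2 of 3 wild-type 2i+LIF arrays. Every other group lay below wild-type LIF. The joint change was -4.14 (SE 0.079, adjusted p = 5.2e-10), between genotype (-3.16) and medium (-5.78). Dusp4, another ERK phosphatase, and Phlda1, an early-response gene, fell by 2.65 and 2.91, and Dusp5 was at least 3.24-fold lower. Etv4 and Etv5, ETS factors induced by FGF signalling, rose by 1.68 and 1.00. For Etv4 the medium alone gave 0.084 (adjusted p = 0.5) and genotype alone 2.39. Myc had a joint change of -2.07 (SE 0.52, adjusted p = 0.0051) with a wide spread between arrays. MAPK pathway components had a median joint change of 0.04 (10 up, 7 down of 26), which was -0.092 with quantile normalization and -0.29 without scaling. Among its largest members were Map2k1, the MEK1 kinase that 2i inhibits, at 1.02, the effector kinase Rps6ka1 at 1.07 and the receptor Fgfr2 at -1.37. Map3k3, a kinase of MAPK cascades, was at -0.21 (adjusted p = 0.013), and the Ras activator Sos1 at -0.26 (adjusted p = 0.66).

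Targets of Wnt and beta-catenin were called above the sum more often than below it. Of 19 tested, 10 rose and 7 fell, with a median joint change of 0.36, beside medians of -0.041 for medium alone and -0.10 for genotype alone, and the departure was above 0 in 12 and below 0 in 2. The background over all genes is 23.0% above and 26.7% below, and for 3 of the members above the sum the additive level lies below the lowest signal read. Other lists had such counts too, as formative and primed epiblast genes (12 above, 2 below) and translation initiation factors (18 and 2). Naive pluripotency genes had the reverse (1 and 16). A departure above 0 also arises where a fall is smaller than the sum. Only 3 Wnt members were at least 2-fold higher and above both singly changed groups. Axin2, the feedback scaffold of the beta-catenin destruction complex, had levels of -0.70, -0.07 and -0.72 in Nat1-null 2i+LIF, -3.06, -3.83 and -3.60 in Nat1-null LIF, -2.07, -2.30 and -2.01 in wild-type 2i+LIF and -2.02, -2.18 and -2.24 in wild-type LIF. The Nat1-null 2i+LIF arrays were the highest and the Nat1-null LIF arrays the lowest. Medium alone gave 0.022 (adjusted p = 0.94) and genotype alone -1.35, but the joint change was 1.66 (SE 0.22, adjusted p = 7.3e-05), a departure of 2.98 (SE 0.31, adjusted p = 3.4e-05).

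Sp5, a zinc finger factor induced directly by beta-catenin, had levels of 2.12, 1.00 and 2.06 in Nat1-null 2i+LIF, -2.97, -2.71 and -3.20 in Nat1-null LIF, -0.66, -0.46 and -0.45 in wild-type 2i+LIF and -2.03, -2.09 and -2.03 in wild-type LIF. It rose 13.7-fold jointly, with a joint change of 3.78 (SE 0.26, adjusted p = 7.3e-07) beside 1.53 for medium and -0.91 for genotype, a departure of 3.16. The Sp5 promoter is shown because it holds the TCF/LEF letters CTTTGAT (searched on both strands) in the 250 bases before to 50 after the start site. These letters stand in 4.29% of genes with a promoter in the RefSeq table and in 2 of the 15 list members found there. The match begins 104 bases before the start site on chr2:70474799-70474845 of GRCm38.p6, plus strand, with the matched letters in capitals.
Sp5: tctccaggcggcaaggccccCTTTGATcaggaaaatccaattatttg
A match of letters is a description and no evidence of binding. The other list member with it, Tnfrsf19, a receptor of the TNF family, had a joint change of -1.5. A hypoxia response core and a STAT site were searched as well, and their matches are not shown. They stood in 14 of 18 hypoxia response members and 4 of 18 LIF and STAT3 members with a promoter. Among all genes with a promoter the shares were 21.8% and 9.55%.

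Cdx1, a caudal homeobox gene, had levels of 5.18, 4.79 and 5.15 in Nat1-null 2i+LIF, -0.63, 0.11 and -0.60 in Nat1-null LIF, 4.23, 4.20 and 4.15 in wild-type 2i+LIF and -1.75, -1.73 and -1.79 in wild-type LIF. Its joint change of 6.80 (SE 0.18, adjusted p = 2.2e-09), or 111-fold, was mostly that of medium (5.95) with 1.39 from genotype, and the departure was not called (-0.54, adjusted p = 0.11). The probe of brachyury (T), the T-box factor of the primitive streak, was not tested because the scanner marked its spot on Nat1-null 2i+LIF replicate 2 as an outlier (2.52). Its other levels were -0.35 and -0.18 in Nat1-null 2i+LIF, -4.28, -3.99 and -4.02 in Nat1-null LIF, -2.41, -2.23 and -2.26 in wild-type 2i+LIF and -3.89, -4.28 and -4.05 in wild-type LIF. Both unmarked Nat1-null 2i+LIF values were the highest. Lef1, a TCF factor and itself a target, had opposed single changes of -2.25 with medium and 1.56 with genotype, and a joint change of -0.97 (SE 0.25, adjusted p = 0.0054) beside a sum of -0.69 (departure adjusted p = 0.53). Members that were lower included Ccnd2, cyclin D2, at -5.19 and the transcriptional repressor Zfp703 at -3.32.

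Primitive streak and mesoderm genes had 6 up and 6 down of 14, not far from the shares of all genes, with a median of 0.059 that was -0.27 without scaling. Eomes, a T-box factor of the streak, had levels of 1.82, 1.61 and 1.90 in Nat1-null 2i+LIF cells, against -1.5, -1.40 and -1.44 in wild-type LIF cells. Its joint change of 3.23 (SE 0.16, adjusted p = 7.9e-08) was near the sum of 3.1 and past both single changes. Gsc, the goosecoid homeobox gene of the organizer, had a joint change of 3.51 beside a sum of 4.07. Meox1, a homeobox gene of somites, and Wnt3 were not well above background outside wild-type LIF and were at least 13.8-fold and 2.46-fold lower. Nodal, BMP and TGF-beta targets were not far from them either (6 up, 7 down of 15, median -0.29). Smad7, an inhibitory SMAD, rose by 2.65, while the Nodal antagonist Lefty1 (-3.24) and the matricellular protein Ccn2 (-3.52) were lower.

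Neural ectoderm had 14 of 17 genes down and 0 up, with a median joint change of -3.07, beside medians of -1.97 for medium alone and -2.54 for genotype alone. The median was smaller, -1.09 for the joint change over the 8 members bright on all 12 arrays, and the other 9 were tested because they were bright on all arrays of some group, so the count of falls supports no direction of the list. N-cadherin (Cdh2) had levels of -2.76, -2.67 and -2.56 in Nat1-null 2i+LIF cells, against 2.51, 2.51 and 2.70 in wild-type LIF cells, a joint change of -5.24 (SE 0.11, adjusted p = 5.9e-10). Fabp7, a fatty acid carrier of neural progenitors, was well above background in wild-type LIF alone and was at least 69.5-fold lower, and Pax6, a paired-box factor of neural progenitors, was at least 11.3-fold lower. The summed signal of 6 neural markers was 1.45 to 1.66 in Nat1-null 2i+LIF and 4.80 to 4.85 in wild-type LIF, with 3 and 6 of them well above background on all 3 arrays. Pax6, Fabp7 and Dcx were not well above background in Nat1-null 2i+LIF. In bulk RNA fewer cells of a type and less RNA per cell cannot be told apart, and the part of such cells was not tested. Endoderm had 11 of 18 down and 4 up, with a median of -1.06, and -0.32 for the joint change over the 11 members bright on all 12 arrays. Of the 4 that rose, 3 were at least 2-fold higher. The members named next were among those with the largest absolute joint changes and do not stand for the list. Cubn, an uptake receptor of visceral endoderm, was at least 15-fold lower in Nat1-null 2i+LIF, where it was the single group without a signal well above background, and the adaptor Dab2 was at least 11.8-fold lower. The laminin chain Lamb1 had a joint change of -3.40, past both single changes of -1.78 and -2.60. The summed signal of 8 primitive endoderm markers overlapped, at 0.75 to 1.24 in Nat1-null 2i+LIF and 0.97 to 1.40 in wild-type LIF. That of 6 mesoderm markers was higher in Nat1-null 2i+LIF, at 3.74 to 3.88 against 2.98 to 3.02.

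Trophoblast genes had 8 of 15 down and 5 up, and a median of -1.99 that was 0.20 over the 10 members bright on all 12 arrays. The simple-epithelium keratin Krt18 had levels of 3.18, 3.26 and 3.29 in Nat1-null 2i+LIF, 1.84, 2.25 and 1.93 in Nat1-null LIF, 1.31, 1.36 and 1.46 in wild-type 2i+LIF and 7.24, 7.17 and 7.38 in wild-type LIF. Wild-type LIF was far above the other 3 groups, and Nat1-null 2i+LIF stood above both singly changed groups. The joint change was -4.02 (SE 0.10, adjusted p = 1.8e-09) and the departure 7.12 (SE 0.15, adjusted p = 7e-09), and its partner Krt8 had a joint change of -4.30. The summed signal of 7 trophoblast markers was 3.62 to 3.72 (log2) in Nat1-null 2i+LIF and 7.33 to 7.53 in wild-type LIF. Most of it was the signal of Krt18, so it says little of the other markers. Of the 5 list members that rose, 3 were at least 2-fold higher, and 3 lay above both singly changed groups. Krt18 and Krt8 were among the members with the largest absolute joint changes and do not stand for the list.

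Smooth muscle contractile genes were lower in Nat1-null 2i+LIF cells. All 14 members tested fell, with a median joint change of -4.08, beside medians of -4.23 for medium alone and -4.42 for genotype alone, and -4.12 for the joint change over the 9 members bright on all 12 arrays. Smooth muscle actin Acta2 had levels of -1.84, -2.57 and -1.80 in Nat1-null 2i+LIF, -3.03, -3.66 and -3.28 in Nat1-null LIF, -1.84, -1.55 and -1.87 in wild-type 2i+LIF and 6.33, 6.22 and 6.35 in wild-type LIF. The 3 changed groups lay far below wild-type LIF, with Nat1-null LIF the lowest, and the joint change of -8.37 (SE 0.22, adjusted p = 1.8e-09), or 331-fold, did not differ by the test from medium alone (adjusted p = 0.27). The single changes summed to -17.69, which would give a level of -11.38, below the lowest signal read, so its departure has no readable size. This holds for 9 of the 14 members, Acta2 included. The skeletal actin Acta1, calponin (Cnn1) and the myosin light chain Myl9 had joint changes of -6.61, -6.98 and -5.92.

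Fibroblast and feeder cell markers, a list that shares Acta2 and Tagln with the contractile genes, had 13 of 16 down and 2 up, with a median of -2.30, beside medians of -1.59 for medium alone and -2.44 for genotype alone, and -1.43 for the joint change over the 9 members bright on all 12 arrays. The collagen chains Col1a1 and Col1a2 had joint changes of -7.79 and -9.49, with 2 of 3 Nat1-null 2i+LIF arrays well above background for Col1a2. Col1a1 was past both single changes (-6.71 and -7.26), and the proteoglycan decorin (Dcn) was at least 50.9-fold lower. The 2 members that rose were at least 2-fold higher, 1 of them past both single changes. The members named above were picked for the size of their joint change, so they do not stand for the list. Of 17 such markers with a probe, 9 were well above background on all Nat1-null 2i+LIF arrays and 16 on all wild-type LIF arrays. Their summed signal was 7.59 to 7.68 in Nat1-null 2i+LIF and 8.68 to 8.76 in wild-type LIF. It was 6.93 to 7.13 in Nat1-null LIF and 7.39 to 7.47 in wild-type 2i+LIF, both below Nat1-null 2i+LIF. Postn, Lum, Dcn and Prrx1 were not well above background on any Nat1-null 2i+LIF array. The part of such cells in these falls was not tested.

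**Figure D3:**
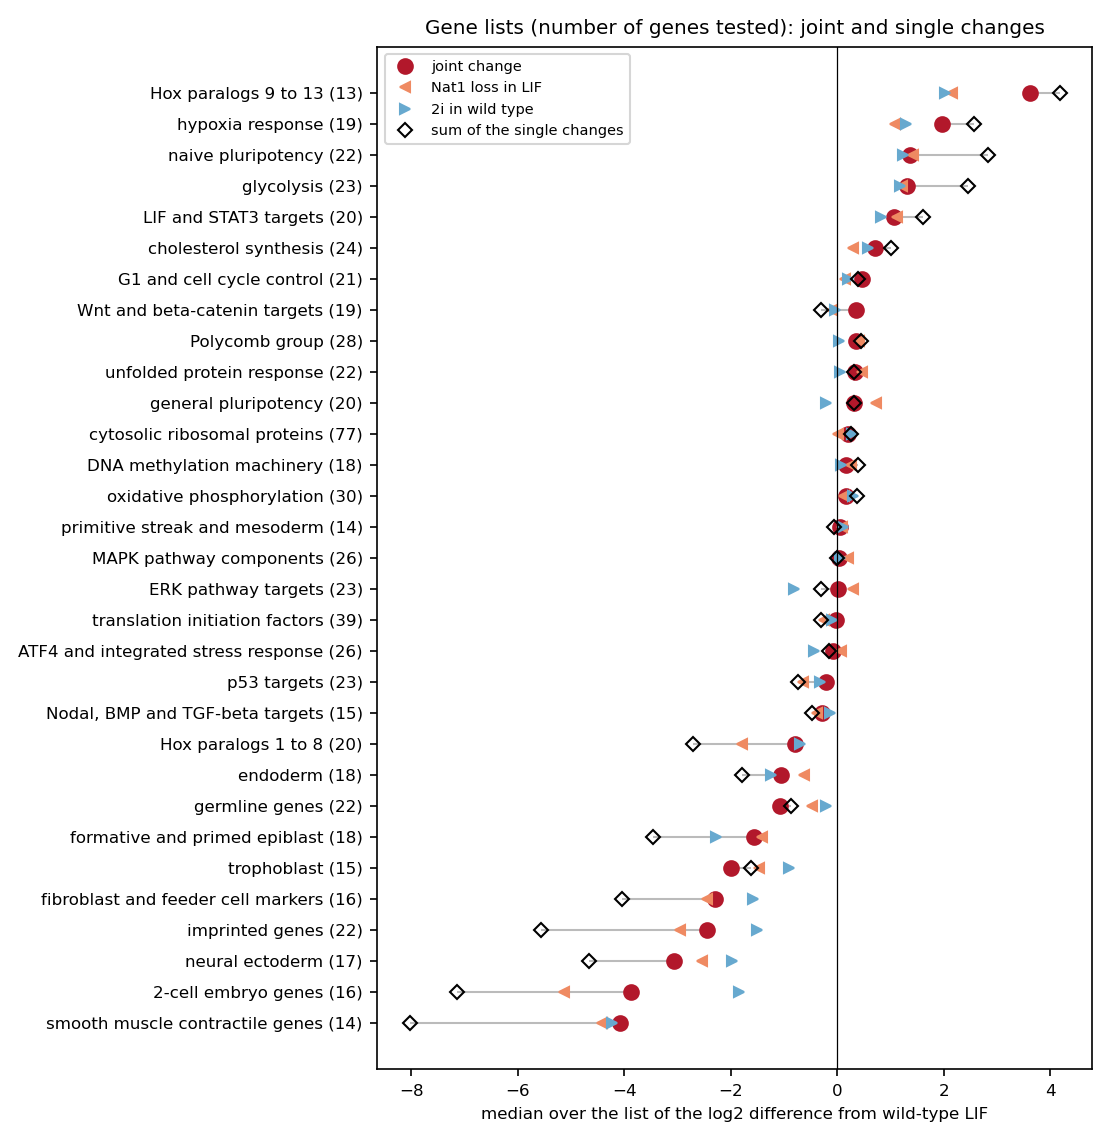
Median log2 difference from wild-type LIF over each gene list (horizontal axis) for the joint change, each single change and the sum of the single changes, with the number of genes tested in brackets. Smooth muscle contractile genes had a median joint change of -4.08 against a sum of -8.03, while posterior Hox paralogs had 3.63 against 4.17, and medians near 0 (general pluripotency, ERK targets, MAPK components, primitive streak, DNA methylation, translation factors, ribosomal proteins, ATF4 response and oxidative phosphorylation) change sign under some alternative setting.

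Of the 2-cell embryo genes, expressed in a rare subset of embryonic stem cells, 14 of 16 were down and 2 up. Their median joint change was -3.88, beside medians of -1.84 for medium alone and -5.12 for genotype alone. Over the 5 members bright on all 12 arrays it was -4.41. The other members were tested because they were bright on all arrays of some group, so the count of falls supports no direction of the list. Counts of falls in the smooth muscle, fibroblast, endoderm, trophoblast and imprinted lists include such members too. Zscan4c, a telomere maintenance factor, had levels of -0.91, -1.09 and -1.18 in Nat1-null 2i+LIF, -1.89, -1.95 and -1.90 in Nat1-null LIF, 2.69, 2.79 and 2.67 in wild-type 2i+LIF and 4.10, 3.99 and 4.08 in wild-type LIF. Both Nat1-null groups were below both wild-type groups. The joint change of -5.12 (SE 0.074, adjusted p = 1.3e-10) was smaller than genotype alone (-5.97) and much larger than medium alone (-1.34). Zscan4f had -4.70 and the deubiquitinase gene Usp17lb -5.17, the last with 1 of 3 Nat1-null 2i+LIF arrays well above background. Probes of these multicopy families can bind several copies. Germline genes had 15 of 22 down and 4 up, with a median joint change of -1.08, beside medians of -0.22 for medium alone and -0.48 for genotype alone. Tex19.1, which protects the germline from retrotransposons, had a joint change of -2.55 and did not differ by the test from genotype alone (-2.56, adjusted p of the difference 0.98). Mael, of the piRNA pathway, had -1.82, beside -1.03 with medium and -0.80 with genotype, with a departure of 0.0044 (adjusted p = 0.99).

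Imprinted genes, expressed from 1 parental allele, had 18 of 22 down and 3 up, with a median joint change of -2.44, beside medians of -1.5 for medium alone and -2.95 for genotype alone, and -1.47 for the joint change over the 16 members bright on all 12 arrays. Snrpn, a paternally expressed splicing protein gene, had levels of -3.49, -2.91 and -3.54 in Nat1-null 2i+LIF, -3.31, -2.84 and -3.88 in Nat1-null LIF, 1.68, 1.51 and 1.68 in wild-type 2i+LIF and 2.72, 2.75 and 2.90 in wild-type LIF. Both Nat1-null groups lay far below both wild-type groups, and the joint change of -6.10 (SE 0.24, adjusted p = 2e-08) stood beside -6.13 for genotype and -1.17 for medium. The noncoding RNA H19 had a joint change of -7.41 with a signal well above background on 2 of 3 Nat1-null 2i+LIF arrays, and Dlk1, a Notch ligand relative, and the zinc finger gene Peg3 were at least 73.4-fold and 41.2-fold lower. Plagl1, a paternally expressed zinc finger factor, had levels of 5.05, 4.68 and 4.88 in Nat1-null 2i+LIF, -0.90, -0.35 and -0.66 in Nat1-null LIF, 4.12, 4.09 and 4.06 in wild-type 2i+LIF and 2.51, 2.38 and 2.44 in wild-type LIF. It was highest in Nat1-null 2i+LIF and lowest in Nat1-null LIF, with single changes of 1.65 (medium) and -3.08 (genotype), a joint change of 2.43 (SE 0.13, adjusted p = 1.4e-07) and a departure of 3.86. These values are those of its brightest probe. Over its 4 probes the joint change ranged from -0.095 to 2.47, so a rise of the gene is uncertain.

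Hox genes pattern the body axis in clusters. Of 13 posterior paralogs (9 to 13) tested, 11 rose and 0 fell, with a median joint change of 3.63, beside medians of 2.02 for medium alone and 2.15 for genotype alone, and 7 lay above both singly changed groups. The median was 2.68 for the joint change over the 4 members bright on all 12 arrays, and 1.61 over all members with normexp background correction. The other 9 members were tested because they were bright on all arrays of some group, so the count of rises supports no direction of the list. Hoxb13 had levels of 2.78, 3.05 and 2.93 in Nat1-null 2i+LIF, 0.59, 1.76 and 0.71 in Nat1-null LIF, 0.71, 0.41 and 0.81 in wild-type 2i+LIF and -2.37, -2.13 and -2.26 in wild-type LIF. No Nat1-null 2i+LIF array overlapped another group, and the joint change was 5.18 (SE 0.26, adjusted p = 9.3e-08), or 36.2-fold, beside a sum of 6.18. Hoxa10, Hoxa11 and Hoxc11 were not well above background in wild-type LIF and were at least 34.4-fold, 24.2-fold and 30.2-fold higher, and Hoxa11os, a noncoding RNA antisense to Hoxa11, rose by 5.17. Of 20 anterior paralogs (1 to 8), 12 fell and 4 rose, beside 33.1% lower and 36.2% higher among all genes. Their median joint change was -0.80, and -0.74 over the 8 members bright on all 12 arrays. The other members were again tested through some group in which they were bright, so this count supports no direction either. Hoxb2 was at least 52.9-fold and Hoxb1 at least 5.65-fold lower.

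Glycolytic, hypoxia-responsive and cholesterol synthesis genes were mostly higher. Glycolysis had 21 of 23 genes up and 1 down, with a median joint change of 1.30, beside medians of 1.18 for medium alone and 1.21 for genotype alone, and 18 members below the sum. Aldoc, an aldolase, had levels of 6.01, 6.36 and 6.12 in Nat1-null 2i+LIF cells, against 2.26, 2.34 and 2.68 in wild-type LIF cells, a joint change of 3.74 (SE 0.22, adjusted p = 2.3e-07). The lactate transporter Slc16a3, hexokinase Hk1 and phosphofructokinase Pfkp had joint changes of 2.88, 2.61 and 2.36. The hypoxia response, a list that holds targets of the oxygen-regulated factor HIF-1, had 15 of 19 up and 1 down, with a median of 1.96, beside medians of 1.29 for medium alone and 1.08 for genotype alone, and 1.28 for the joint change with normexp background correction. Ndufa4l2, a mitochondrial protein induced by HIF-1, had levels of 3.84, 3.97 and 3.87 in Nat1-null 2i+LIF, 3.77, 4.22 and 3.49 in Nat1-null LIF, 3.23, 2.80 and 3.35 in wild-type 2i+LIF and -2.21, -2.17 and -1.69 in wild-type LIF. The 3 changed groups were all far above wild-type LIF, the joint change was 5.92 (SE 0.21, adjusted p = 1e-08), and the departure from a sum of 11 was -5.09. Bnip3, a mitophagy receptor, and the collagen hydroxylase P4ha1 rose by 2.88 and 2.71.

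Cholesterol synthesis had 20 of 24 genes up and 0 down, with a median joint change of 0.71, beside medians of 0.58 for medium alone and 0.29 for genotype alone, and 0.38 for the joint change without scaling. Ebp, a sterol isomerase, had levels of 5.69, 5.39 and 5.69 in Nat1-null 2i+LIF cells, against 4.05, 4.13 and 4.22 in wild-type LIF cells, and its joint change of 1.46 (SE 0.10, adjusted p = 5.4e-07) was close to the sum of 1.36 (departure 0.10, adjusted p = 0.57). The sterol carrier Stard4, the reductase Tm7sf2 and the sterol sensor Insig1 rose by 1.53, 1.39 and 1.29. Among 77 cytosolic ribosomal protein genes, 52 rose (list median 0.20), and 17 of 30 oxidative phosphorylation genes rose (list median 0.16), but both medians turned negative with quantile normalization (-0.016 and -0.031) and without scaling (-0.13 and -0.17). None of their members changed 2-fold, and the largest joint change among those of oxidative phosphorylation was that of Sdhc, a subunit of complex II, at 0.74.

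The unfolded protein response, by which cells raise chaperones of the endoplasmic reticulum, had 14 of 22 genes up and 4 down, with a median joint change of 0.34, beside medians of 0.043 for medium alone and 0.45 for genotype alone, and 0.0089 without scaling. Derl3, of the degradation machinery of that organelle, had levels of 1.72, 1.64 and 1.89 in Nat1-null 2i+LIF, 3.12, 3.15 and 3.16 in Nat1-null LIF, 0.08, 0.21 and 0.10 in wild-type 2i+LIF and 0.61, 0.69 and 0.63 in wild-type LIF. Nat1-null arrays in both media were above the wild-type ones, and the joint change of 1.10 (SE 0.069, adjusted p = 3.7e-07) was below genotype alone (2.50), and medium alone gave -0.51. Sdf2l1, Pdia4 and Hyou1, luminal folding proteins, had joint changes of 1.5, 1.32 and 1.24, and the chaperone BiP (Hspa5) had 0.75.

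Promoters of this list are shown because they hold the endoplasmic reticulum stress element, searched on both strands as CCAAT, any 9 bases and CCACG, in 9 of the 19 members with a promoter in the RefSeq table, against 0.137% of the 27025 genes there. Of these 9 members 8 had a higher joint change, with a median of 0.50, and of the 10 members without it 4 were higher and 4 lower, with a median of -0.086. The members were listed as genes of this response, so these shares and medians are a description. A match of letters is no evidence of binding, and a link between the element and the joint change was not tested. The sequences below run 20 bases to each side of the match (GRCm38.p6, gene strand), with the element in capitals: Hspa5 at chr2:34772005-34772063 (plus), Dnajc3, a co-chaperone, at chr14:118937807-118937865 (plus), Pdia6, a disulfide isomerase, at chr12:17266471-17266529 (plus), and Derl3 at chr10:75893222-75893280 (plus), where the element reads on the opposite strand.
Hspa5: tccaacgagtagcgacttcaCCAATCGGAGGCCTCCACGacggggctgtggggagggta
Dnajc3: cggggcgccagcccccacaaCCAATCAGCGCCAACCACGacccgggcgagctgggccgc
Pdia6: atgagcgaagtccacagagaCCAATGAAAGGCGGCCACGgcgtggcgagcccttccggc
Derl3: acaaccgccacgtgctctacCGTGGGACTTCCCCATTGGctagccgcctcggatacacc
Joint changes of these genes, in the order shown, were 0.75, 0.64, 0.39 and 1.10, and that of Pdia6 was not called without scaling (0.057) or with quantile normalization (0.15). The other members with an element whose joint change was called, Calr, Creld2, Canx and Hsp90b1, had 0.55, 0.50, 0.27 and 0.13. The member with an element whose joint change was not called was Syvn1, a ubiquitin ligase of the same organelle (-0.12, adjusted p = 0.28).

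Counts for the regulatory lists that follow stand beside 36.2% higher and 33.1% lower among all genes, and nothing is read from them. The ATF4 and integrated stress response had 11 up and 10 down of 26. Phgdh, the first enzyme of serine synthesis, had a joint change of -2.04 that was not told apart from genotype alone (-1.98, adjusted p of the difference 0.82), while Chac1, a glutathione-degrading enzyme, and the amino acid transporter Slc7a3 had -1.27 and -1.47, beside -1.74 and -1.35 with medium alone. The p53 targets had 5 up and 10 down of 23, with the death receptor Fas at -2.51 and the proapoptotic Bax at 1.43. Translation initiation factors had 12 up and 17 down of 39. Eif4g3, a further eIF4G relative, had a joint change of -2.23, beside -0.84 with medium and -1.28 with genotype (departure -0.11, adjusted p = 0.54), and the helicase Eif4a2 rose by 1.52.

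DNA methylation machinery had 8 up and 7 down of 18, with the dioxygenase Tet2 at 1.80. The Polycomb group had 14 up and 8 down of 28. Pcgf1, a subunit of a variant PRC1 complex, had a joint change of 1.66 beside a sum of 1.55 and past both single changes, and Cbx6, a chromodomain subunit, had 1.99. Over the 3 probes of Cbx6 the joint change ranged from 0.27 to 1.99. The G1 and cell cycle control list had 12 up and 7 down of 21. The cyclin-dependent kinase inhibitors Cdkn1c and Cdkn2b had joint changes of -4.33 and -1.88.

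Tlx2 had the largest rise among genes well above background in both groups that carry a name other than a clone or predicted-gene number. Tlx2, a homeobox gene of neural crest derivatives, had levels of 4.64, 4.15 and 4.69 in Nat1-null 2i+LIF, 1.24, 1.41 and 1.27 in Nat1-null LIF, 0.34, 0.30 and 0.27 in wild-type 2i+LIF and -2.35, -2.42 and -2.35 in wild-type LIF. Each Nat1-null 2i+LIF array was above every other array, and the joint change was 6.86 (SE 0.12, adjusted p = 5.2e-10), or 116-fold, slightly above the sum of 6.35 (departure 0.51, adjusted p = 0.035, not called with most single arrays left out). Fxyd4, a regulator of the sodium pump, rose by 6.51 (91.0-fold), the homeobox gene Nkx6-3 by 5.76, the mitochondrial enzyme Dmgdh by 5.57, the membrane protein Islr2 by 5.29 and the arginine deiminase Padi2 by 5.07. Of these, Dmgdh exceeded its sum (4.71) while Islr2 and Nkx6-3 were below genotype alone (6.26 and 6.35). Pglyrp1, an innate immune protein, was at least 38.5-fold higher.

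Among the largest falls of genes so named were the annexins Anxa1 and Anxa3 at -6.15 and -5.35, the actin-binding protein Lsp1 at -5.73 and Lrp2 (megalin), an uptake receptor, at -5.62. Gap43, a growth cone protein, was not well above background in Nat1-null 2i+LIF and was in all 3 other groups, at least 183-fold below wild-type LIF. Its single changes of -5.16 and -5.09 summed to -10.25. Vgf, a neuropeptide precursor, was at least 228-fold lower, the protease Prss23 at least 74.5-fold and Ankrd1, a stretch-responsive nuclear cofactor, at least 61.6-fold.

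Some genes reached levels in the doubly changed cells that neither change gave alone. Ly6a (Sca-1), a GPI-anchored surface protein, had levels of 2.54, 2.66 and 2.51 in Nat1-null 2i+LIF, -1.37, -0.74 and -1.56 in Nat1-null LIF, -0.40, -0.25 and -0.33 in wild-type 2i+LIF and -0.50, -0.56 and -0.49 in wild-type LIF. The Nat1-null 2i+LIF arrays stood above all others, although medium alone gave 0.19 (adjusted p = 0.36) and genotype alone -0.71. The joint change was 3.09 (SE 0.17, adjusted p = 1.6e-07) and the departure 3.60 (SE 0.24, adjusted p = 2.2e-06). Its relative Ly6c1 had a joint change of 2.64, but a second probe of that gene had -1.58, so its direction is uncertain. Mal, a raft-associated membrane protein, Msln (mesothelin) and the prostaglandin transporter Slco2a1 had joint changes of 3.57, 1.33 and 1.40 with departures of 1.68, 3.95 and 4.20. For Msln and Slco2a1 both single changes were negative. The sialyltransferase St8sia5 had a joint change of 2.21 (SE 0.16, adjusted p = 9.3e-07) with neither single change called (0.16 and -0.35).

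Fgf1, a growth factor, showed the opposite. Its levels were -2.93, -2.36 and -1.93 in Nat1-null 2i+LIF, 0.92, 0.93 and 0.99 in Nat1-null LIF, 0.43, 0.49 and 0.48 in wild-type 2i+LIF and -0.36, -0.19 and -0.18 in wild-type LIF. Each single change raised it, by 0.71 with medium and 1.19 with genotype, and together it was lower than in wild-type LIF by a joint change of -2.17 (SE 0.20, adjusted p = 5.2e-06), a departure of -4.06 (SE 0.28, adjusted p = 2.4e-06). Evc, a protein of the primary cilium, had single changes of 1.18 and 1.41 and a joint change of -1.29 (SE 0.11, adjusted p = 3.6e-06), and Tgfbi, a secreted matrix protein, had 1.81, 0.77 and -1.55. Prkca, protein kinase C alpha, was at -3.25 with single changes of -0.88 and 0.50. Without either single change called, Sfrp4, a secreted Wnt antagonist, was at -2.20, Meiob, a meiotic recombination factor, at -2.13, the transporter Slc47a1 at -1.96 and Cnnm1 at -2.12. Pygo1, a coactivator of beta-catenin, was at 2.40 (SE 0.60, adjusted p = 0.0052), with a departure that was not called (adjusted p = 0.73).

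**Figure D4:**
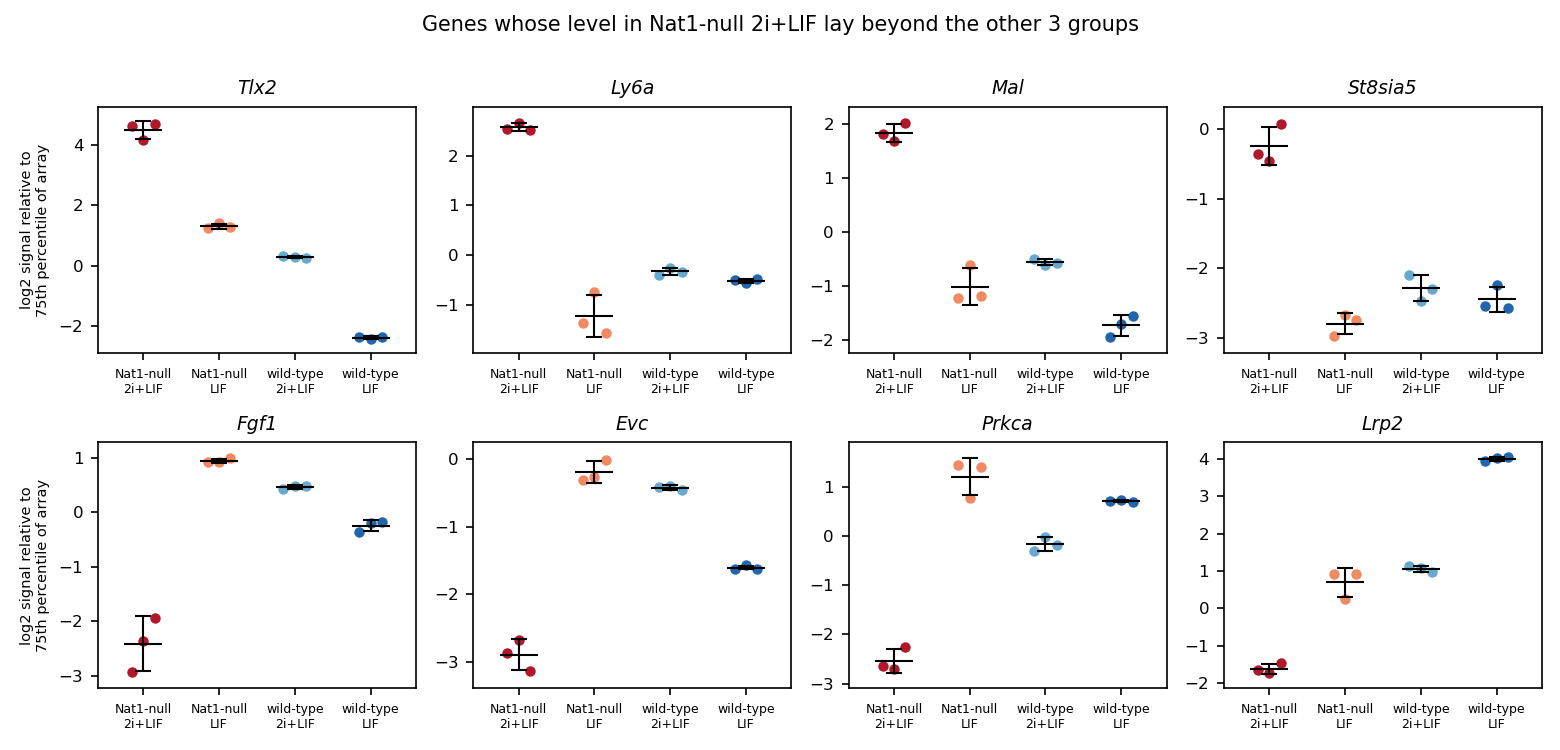
Log2 level, with each array's 75th percentile at 0 (vertical axis), for 8 genes in the 4 groups, with a point per array and a bar for the mean ± SD (n = 3). In the upper row (Tlx2, Ly6a, Mal and St8sia5) all Nat1-null 2i+LIF arrays are the highest, and in the lower row (Fgf1, Evc, Prkca and Lrp2) they are the lowest.

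A last set of genes changed with each single change and was near its wild-type LIF level in the doubly changed cells. Cited1, a transcriptional coregulator, had levels of 2.51, 2.58 and 2.55 in Nat1-null 2i+LIF, -1.31, -0.62 and -1.43 in Nat1-null LIF, 0.79, 0.91 and 1.01 in wild-type 2i+LIF and 2.49, 2.50 and 2.57 in wild-type LIF. Nat1-null 2i+LIF and wild-type LIF overlapped, whereas both singly changed groups were lower, with changes of -1.62 with medium and -3.64 with genotype. The joint change was 0.027 (SE 0.17, adjusted p = 0.9) and the departure 5.28 (SE 0.24, adjusted p = 2.4e-07). Sema3b, a secreted semaphorin, and Serping1, the C1 inhibitor, had joint changes of -0.22 (adjusted p = 0.13) and 0.10 (adjusted p = 0.48) against single changes between -2.61 and -1.78. In the other direction, Klk13, a kallikrein protease, and Mdga1, a GPI-anchored cell adhesion protein, rose with each single change by 1.66 to 2.44 and had joint changes of 0.10 (adjusted p = 0.66) and 0.25 (adjusted p = 0.16). Pdlim4, an actin-associated LIM protein, passed to the other side, with -1.78, -2.79 and a joint change of 1.10 (SE 0.21, adjusted p = 0.00095). The genes in this paragraph were picked for their single and joint changes, so these values describe them.

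**Figure D5:**
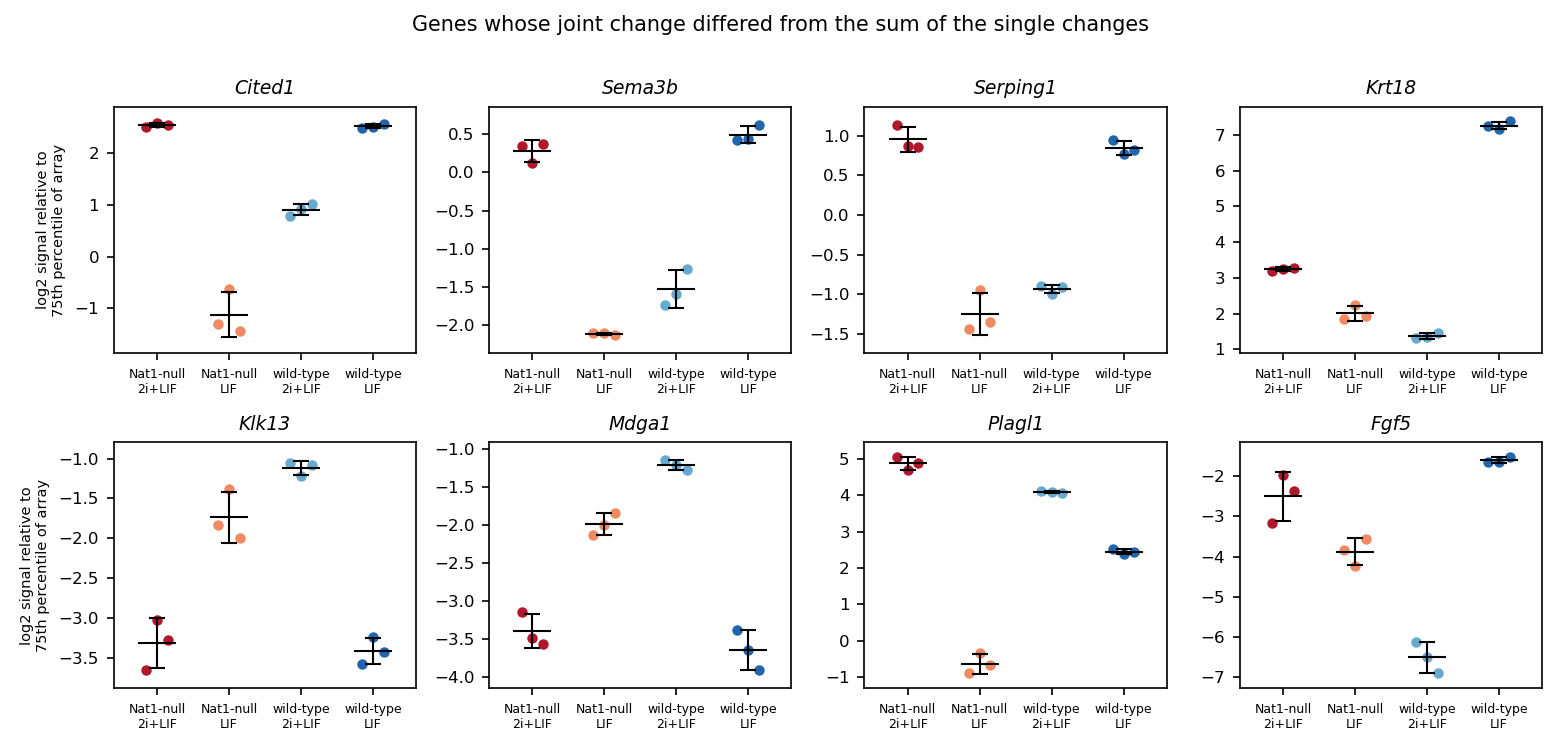
Log2 level, with each array's 75th percentile at 0 (vertical axis), for 8 genes in the 4 groups, with a point per array and a bar for the mean ± SD (n = 3). Cited1, Sema3b and Serping1 are at similar levels in Nat1-null 2i+LIF and wild-type LIF and lower in the singly changed groups, and Klk13 and Mdga1 are higher in the singly changed groups.

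In other genes the single changes were opposed. Slc26a10, of an anion transporter family, had -1.91 with medium, 1.74 with genotype and -0.97 jointly. Scgb3a1, a secretoglobin, had -1.55, 2.16 and -1.65, which was not told apart from medium alone (adjusted p of the difference 0.86). Patl2, an oocyte mRNA regulator, had 1.92, -1.48 and a joint change of -0.28 (adjusted p = 0.025), which was not called without Nat1-null 2i+LIF replicate 1 (-0.21) or without wild-type LIF replicate 1 (-0.27) or 2 (-0.26).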

How the data were processed

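RNA was measured on 12 single-colour arrays, 3 for each of 4 groups named by the sample titles. The deposited scanner files hold each spot's intensity, background-subtracted and spatially detrended by Agilent Feature Extraction 10.7.3.1, per the file headers, whose design names genome build mm9. The series table that the authors deposited is in log2 units. Set against the scanner files, each of its columns is the log2 processed intensity minus that array's 75th percentile, with no centring of genes, and this table was used. No file or label used here names the tool that made it.

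Probes were named through RefSeq annotation (GRCm38.p6), which gave 27656 of 55681 gene-directed probes a symbol. Probes whose spots the scanner program marked as outliers on any array were left out, which the planned design had not foreseen. A probe was kept if all 3 arrays of 1 group or more lay well above background, and the brightest probe stood for its gene. Of 191 named genes 49 had more than 1 probe kept, and sizes can differ between probes, as for Axin2 (joint changes of 0.65 and 1.66). limma 3.58.1 in R 4.3.3 fitted all 12 arrays with 1 mean per group (lmFit, eBayes), and p-values were adjusted over all 24457 genes by Benjamini-Hochberg with a threshold of 0.05. The fit was tested on simulated data. The departure is the interaction contrast.

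"At least N-fold" sets the brighter group's mean against the higher of the dim probe's own signal and the lowest signal among probes well above background on each array. Summed marker signals are log2 of summed linear values.

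Named genes followed a rule: a fixed set, the 10 largest rises and falls, the 4 largest bounds each way, up to 4 called members per list, the 8 largest departures and 8 genes beyond both single changes each way, and 6 genes each with opposed single changes, no single change called, or single changes lost jointly. The called members of each list were taken by largest absolute joint change, so they do not stand for their list. Other list members and brachyury were chosen after their values were seen. Results for 1 list member are not reported here. Members and lists were chosen with earlier results of these data known. Alternatives covered scaling, background correction, probe filters, weights, a replicate block and leaving out each array. The number of arrays limits the precision.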

Additional observations from a re-analysis of the deposited data

Results flagged for a closer look

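The effect of 2i differed between genotypes by a direct test, the interaction contrast of limma, for 12149 genes, which is the same contrast as the departure from the sum. The genes below are its largest values among named genes bright on all 12 arrays, and Krt18, Dppa3, Acta2, Acta1, Cnn1, Ccn2 and Ndufa4l2 were described above and had departures of 7.12, 6.88, 9.31, 7.49, 6.36, 6.31 and -5.09. For Dppa3, Acta2, Acta1 and Cnn1 the level that adding both changes would give (-6.89, -11.38, -10.14 and -8.83) lies below -5.37, the lowest signal read as well above background in Nat1-null 2i+LIF, so the size and rank of their departures are set partly by that limit. The limit differed between the Nat1-null 2i+LIF arrays, from -5.37 to -4.06, and the additive level of Ccn2 (-4.97) lies within that range. Slide and group cannot be told apart for any of these genes.

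The X-linked homeobox genes Rhox6 and Rhox9 had departures of 7.58 and 6.85. The additive level of Rhox6 (-5.48) lies below -5.37 too, and that of Rhox9 (-4.20) lies within the range of -5.37 to -4.06. Rhox6 had levels of 1.82, 2.29 and 2.19 in Nat1-null 2i+LIF, -1.67, -0.78 and -1.33 in Nat1-null LIF, -0.51, -0.20 and -0.18 in wild-type 2i+LIF and 3.86, 3.88 and 4.02 in wild-type LIF. Its joint change was -1.82, beside -4.22 with medium and -5.18 with genotype, and Rhox9 had -1.90, -3.87 and -4.88. Probes of this multicopy family can bind several copies.

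On the negative side, the glutamate receptor subunit gene Grin2c had a departure of -4.97, with a joint change of 3.76 beside 3.83 with medium and 4.90 with genotype. Tal1, a transcription factor of blood formation, had -4.89, with 0.87, 1.23 and 4.52 in the same order. Vax2os had -4.89, Polr3gl, a subunit of RNA polymerase III, -4.51, Ankrd34a -4.42, Igsf21, an immunoglobulin superfamily member, -4.35, and Thrsp, a regulator of lipid synthesis, -4.30. Joint changes of these 5 genes were 3.40, 1.96, 1.71, 3.56 and 3.64, but another probe of Ankrd34a had 0.029.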

How the results depend on the processing

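The alternatives moved counts of genes at least 2-fold changed more than counts of calls. With normexp background correction the counts at least 2-fold were 4105 for the joint change, 2625 for medium, 4196 for genotype, 3246 for the departure, 1234 against wild-type 2i+LIF and 978 against Nat1-null LIF, and 465 genes lay lower than both single changes, beside main counts of 6483, 4688, 6359, 4969, 2672, 1943 and 778. Restricted to probes bright in both groups compared, an alternative chosen after seeing the data, they were 3868, 2694, 3914, 3190 and 1501 for the first 5, with 434 lower than both. Restricted to probes bright on all 12 arrays, all 6 were 3727, 2563, 3725, 3004, 1408 and 1151, with 436 lower than both. Without scaling, 344 genes instead of 631 lay higher than both single changes. Leaving out 1 array gave 15557 to 17615 joint calls, 10923 to 12925 departures, 541 to 716 genes higher and 690 to 814 lower than both. With the replicate block the joint change had 16848 calls and the departure 11964, but the numbers did not pair the arrays: 1 of 18 same-numbered pairs correlated above 0.1 and 2 of 12 arrays correlated best with their own number. Of 1519 medians of gene lists under the alternatives, 247 moved by more than the spread between arrays, 58 of them without scaling, 25 with normexp and 22 with probes bright on all 12 arrays. Direction turned for 5 values of single genes. Without scaling the departures of Dnajc3, Hspa5 and Map2k1 were 0.16, 0.34 and 0.13. Normexp turned that of Hoxc11 (0.10), and the joint change of Sos1 ranged over -0.63 to 0.47 with 1 array left out, the positive value without wild-type LIF replicate 2. The joint change of Fgf5 was no longer called without Nat1-null 2i+LIF replicate 1 (-0.57, adjusted p = 0.069) or wild-type LIF replicate 3 (-0.86, adjusted p = 0.059). The departure of Tlx2 was lost with most single arrays left out (0.41 to 0.54), and that of Dmgdh with quantile normalization (0.56). The cause of these shifts was not tested.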
